A study of Mus musculus with 4 samples.

Results

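TLE3 occupancy was compared between white adipocytes grown from epididymal fat (eWAT) and from inguinal fat (iWAT). The members are all regions in the deposited eWAT or iWAT peak list, after the eWAT, iWAT and brown fat (BAT) lists were joined by peak identifier and duplicate lines were dropped. They number 67416 of the 69599 regions in the series. The other 2183 regions stood in the BAT list alone. The deposited tables named 14025 nearest genes for the 67416 regions. TLE3 was mapped by chromatin immunoprecipitation and sequencing (ChIP-seq), with 1 library from eWAT, 1 from iWAT and 1 from BAT, and 1 input library (chromatin with no antibody) from iWAT. All groups shared 1 design. The stromal-vascular cells, which are the non-adipocyte cells of the fat pad, came from male NMRI mice 4 to 5 weeks old, in pools of 10 to 15 animals. They became adipocytes in culture by day 8, in medium with insulin (30 nM) and rosiglitazone (1 µM), an agonist of the nuclear receptor PPARγ. Cultures over 50% differentiated were used, so other cells could remain beside the adipocytes. Fixation took 15 min in 2 mM disuccinimidyl glutarate, which links proteins to each other, and 30 min in 1% formaldehyde. With 1 pooled library a depot, depot and library cannot be told apart. In such mixed cultures, more cells of a type and more TLE3 per cell at its genes cannot be told apart either. All intervals are 95% intervals and cover counting error only.

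TLE3 belongs to the Groucho or TLE family of corepressors. These proteins have no DNA-binding domain of their own and reach chromatin through transcription factors such as TCF/LEF, RUNX, HES and T-box proteins. In fat cells TLE3 is known as a partner of PPARγ and as a brake on the thermogenic programme of brown and beige adipocytes. Epididymal fat is a visceral depot covered by mesothelium, and inguinal fat is a subcutaneous depot of the hind body. The depots keep different sets of developmental transcription factors in culture.

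Values are scaled reads, which are the reads in a 230 bp region after the authors' scaling to one total per library. One sequenced read was worth 0.883 scaled reads in the eWAT library and 0.526 in iWAT. It was worth 2.77 in the BAT library and 0.651 in the input library. Thus the iWAT library was the deeper of the white pair and the BAT library the shallowest. A value of 0 allows up to 3 reads, or 2.65 scaled reads in eWAT and 1.58 in iWAT. Of each white library's reads, 26.0% in eWAT and 26.1% in iWAT fell in the 67416 regions, if the scale was 10 M reads. A difference is given as the log2 of eWAT over iWAT, above 0 where eWAT is higher. It was centred on the median of the strongest 25% of regions, which lay 0.12 above 0, or for genes on the median gene, which lay 0.14 above 0. A region or gene is called higher in a depot when it differs by at least 2-fold and its interval excludes no change. By that rule 11427 regions (16.9%) were higher in eWAT and 16487 (24.5%) in iWAT. A gene's value is the sum over all regions named for it, and 13813 genes with at least 30 reads in the pair were measured. Of these, 1342 (9.72%) were higher in eWAT and 1640 (11.9%) in iWAT. With the whole interval past 2-fold, 4293 regions (6.37%) and 510 genes (3.69%) were higher in eWAT, and 8561 regions (12.7%) and 792 genes (5.73%) in iWAT. The lists hold no region under 15 scaled reads on its own side, and none under 10 times the input, which came from iWAT. Of the regions off the iWAT list, 3512 of 16960 reached 15 scaled reads in iWAT, as did 2587 of 16401 off the eWAT list in eWAT. Thus regions listed on 1 side only were chosen for being high there, and the sums rest on the listed regions alone.

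Start sites of genes known from macrophages and other leukocytes were among those with more TLE3 in eWAT. In all, 436 regions were centred within 150 bp of the start site of the gene they were named for. Of these, 99 (22.7%) were higher in eWAT and 30 (6.88%) in iWAT, against 16.9% and 24.5% of all regions. The higher eWAT share went with this narrow window. Of 1320 regions annotated as promoter, 17.0% were higher in eWAT and 11.2% in iWAT, and of 1911 regions within 1 kb of a start 16.5% and 12.5%. At the start of C1qb, which encodes a chain of the complement protein C1q, the eWAT library held 18.5 scaled reads and the iWAT library 0.53, which is 1 read. C1qa, the neighbouring gene for another chain of C1q, held 41.5 in eWAT and 6.83 in iWAT (log2 difference 2.48, interval 1.57 to 3.49). Cd53, a tetraspanin of leukocyte membranes, held 53.0 and 9.98 (2.28, 1.52 to 3.11). Nothing was read in the BAT library at any of the 3. Cd300lf, an inhibitory receptor of myeloid cells, held 38.9 scaled reads in eWAT and 5.26 in iWAT, and Lyl1, a transcription factor of blood progenitors, 22.1 and 5.78. Among the starts higher in iWAT, Aspn, the matrix proteoglycan asporin, held 6.18 scaled reads in eWAT and 32.6 in iWAT. H6pd, which makes NADPH in the endoplasmic reticulum, was strong in both at 188 and 168 (log2 difference 0.04). The 250 bases upstream of 6 of these starts, all but C1qa, are printed here as the promoters behind these values. They were chosen after the values were seen, were matched by gene symbol and come from RefSeq on build GRCm38.p6, whereas the peak positions are on mm9. Each is written on the gene's own strand, 5′ to 3′, ending at the base before the start. Capitals mark GAGGAA or its reverse complement, a purine-rich word found in binding sites of PU.1 and other ETS factors.
C1qb (chr4:136886201-136886450, minus strand): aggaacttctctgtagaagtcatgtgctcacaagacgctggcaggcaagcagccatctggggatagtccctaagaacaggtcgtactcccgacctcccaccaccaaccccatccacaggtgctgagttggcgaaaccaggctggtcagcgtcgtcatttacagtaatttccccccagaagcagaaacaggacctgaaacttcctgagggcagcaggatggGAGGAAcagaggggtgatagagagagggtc
Cd53 (chr3:106790150-106790399, minus strand): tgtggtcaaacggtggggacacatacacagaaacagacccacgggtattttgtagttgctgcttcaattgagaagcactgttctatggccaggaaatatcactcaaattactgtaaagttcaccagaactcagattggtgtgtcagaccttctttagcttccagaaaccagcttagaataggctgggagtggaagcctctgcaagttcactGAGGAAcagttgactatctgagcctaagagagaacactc
Cd300lf (chr11:115133993-115134242, minus strand): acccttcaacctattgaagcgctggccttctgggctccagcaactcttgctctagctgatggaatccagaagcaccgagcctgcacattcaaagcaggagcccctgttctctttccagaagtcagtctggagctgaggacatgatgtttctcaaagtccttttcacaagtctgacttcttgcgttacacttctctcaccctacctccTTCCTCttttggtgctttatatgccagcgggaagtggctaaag
Lyl1 (chr8:84701207-84701456, plus strand): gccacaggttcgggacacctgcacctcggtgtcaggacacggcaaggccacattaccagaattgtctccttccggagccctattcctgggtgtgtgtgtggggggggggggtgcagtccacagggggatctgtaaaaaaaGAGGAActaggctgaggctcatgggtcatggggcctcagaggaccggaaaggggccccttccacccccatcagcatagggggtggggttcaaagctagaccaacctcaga
Aspn (chr13:49544193-49544442, plus strand): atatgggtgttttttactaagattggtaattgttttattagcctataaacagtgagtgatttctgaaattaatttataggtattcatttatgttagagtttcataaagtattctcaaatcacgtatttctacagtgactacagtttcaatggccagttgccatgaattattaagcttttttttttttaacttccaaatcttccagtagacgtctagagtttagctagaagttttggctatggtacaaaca
H6pd (chr4:150003237-150003486, minus strand): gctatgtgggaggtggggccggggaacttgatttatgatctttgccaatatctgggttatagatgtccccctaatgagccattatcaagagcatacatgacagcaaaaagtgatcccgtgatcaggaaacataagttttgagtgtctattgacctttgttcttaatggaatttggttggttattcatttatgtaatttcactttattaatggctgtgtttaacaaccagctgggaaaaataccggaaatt

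The marked word began at position -30 from the start in C1qb, -39 in Cd53, -43 in Cd300lf and -110 in Lyl1, and the printed stretches of Aspn and H6pd did not hold it. A match is only a stretch of letters and not a measured binding site. Of the 436 start-site regions, 341 had a gene in the RefSeq promoter table, and genes with 1 promoter entry were searched on both strands of the 250 bases. In all, 12 words were searched, and the sets are of genes whose start-site region was called, whatever the call of their sum. GAGGAA stood in 31 of 63 promoters with an eWAT-higher start (49.2%, interval 37.3 to 61.2%). It stood in 3 of 14 promoters with an iWAT-higher start (21.4%, 7.57 to 47.6%), in 38 of 172 not called (22.1%, 16.5 to 28.9%) and in 5267 of all 22862 single promoters in the table (23.0%). The 8-letter form GAGGAAGT, tried first, stood in 3, 0 and 7 of the same 3 sets and in 2.445% of all promoters. With 3 matches in the eWAT-higher set (4.76%, interval 1.63 to 13.1%), its share there is too uncertain to compare. The higher share is thus seen for the short word only, and the long word cannot decide it. The C/EBP word TTGCNNAA stood in 22.2% of the eWAT-higher, 14.3% of the iWAT-higher and 23.8% of the uncalled promoters, against 9.60% of all promoters. AGGTCA, a word of the sites of PPARγ and its partner RXR, stood in 22.2%, 7.14% and 20.9%, against 13.8% of all. Words of factors known to recruit Groucho proteins were searched too. The TCF/LEF word ATCAAAG stood in 2 of 63, 0 of 14 and 7 of 172, the RUNX word TGTGGTT in 6, 2 and 11, the HES word CACGCG in 0, 1 and 15, and the T-box word AGGTGTGA in 0, 0 and 1. Over all promoters the shares were 3.25% for TCF/LEF, 4.44% for RUNX and 7.64% for HES, and 263 of the 22862 held the T-box word. The AP-1 word TGANTCA stood in 6, 1 and 27 (6.96% of all), GATA's AGATAA in 10, 1 and 19 (10.4%), KLF's CCACCC in 16, 2 and 36 (27.2%), and the EBF word in 1, 0 and 5 (0.766%). Median GC content was 46.8% in the eWAT-higher, 45.2% in the iWAT-higher and 50.4% in the uncalled promoters, and 52.0% over all. Whether base composition or gene type moves with these shares was not tested.

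Other leukocyte genes with eWAT-higher starts were picked with their values in view, so no share of such genes is read from them. Nlrp3, the inflammasome sensor, held 37.1 in eWAT and 6.83 in iWAT (2.32, 1.39 to 3.34). Lyz2, the myeloid lysozyme, held 15.9 and 2.1. Il21r, the receptor for interleukin 21, held 20.3 and 0.53, and Cfp, the complement regulator properdin, 15.0 and 0.53. Ccl3, a chemokine, held 48.6 and 11.6, Cd14, the co-receptor for lipopolysaccharide, 33.6 and 8.41, and Ptprc, which encodes CD45, 19.4 and 6.31. Il1b, the inflammatory cytokine, was nearer to the limit at 39.7 and 16.3 (1.16, 0.47 to 1.87). Other leukocyte starts were not called, such as Trem2, a microglial and macrophage receptor, at 70.6 in eWAT and 32.6 in iWAT, Casp1, the inflammasome protease, at 51.2 and 24.2, and Il6 at 47.7 and 44.1. Ptpn22, a leukocyte phosphatase, was higher in iWAT at 27.4 and 86.7. Not all eWAT-higher starts were of this kind. Sulf1, an extracellular sulfatase, held 98.0 in eWAT and 29.9 in iWAT (1.59, 1.11 to 2.07). Agt, angiotensinogen, held 44.2 and 11.6, and Tcf21, a factor of visceral mesenchyme, 18.5 and 2.1. Matrix genes stood on both sides. Lamb2, a laminin chain, was higher in eWAT at 16.8 and 4.73. Fbln5, an elastic fibre protein, held 17.7 in eWAT and 63.1 in iWAT (-1.96, -2.72 to -1.27), and Ltbp1, which binds latent TGF-β, held 41.5 and 99.3 (-1.38, -1.87 to -0.91). Hoxd3, a homeobox gene of body position, held 37.1 and 94.1, Il7 19.4 and 57.3, and Defb48, a defensin, 0.88 and 22.1. The eWAT-higher starts were weak sites, with a median of 30.0 scaled reads in eWAT, against 46.8 at the starts not called. The BAT library had 0 reads at 43 of the 99 eWAT-higher starts (43.4%), at 4 of the 30 iWAT-higher and at 24 of the 307 not called.

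**Figure D1:**
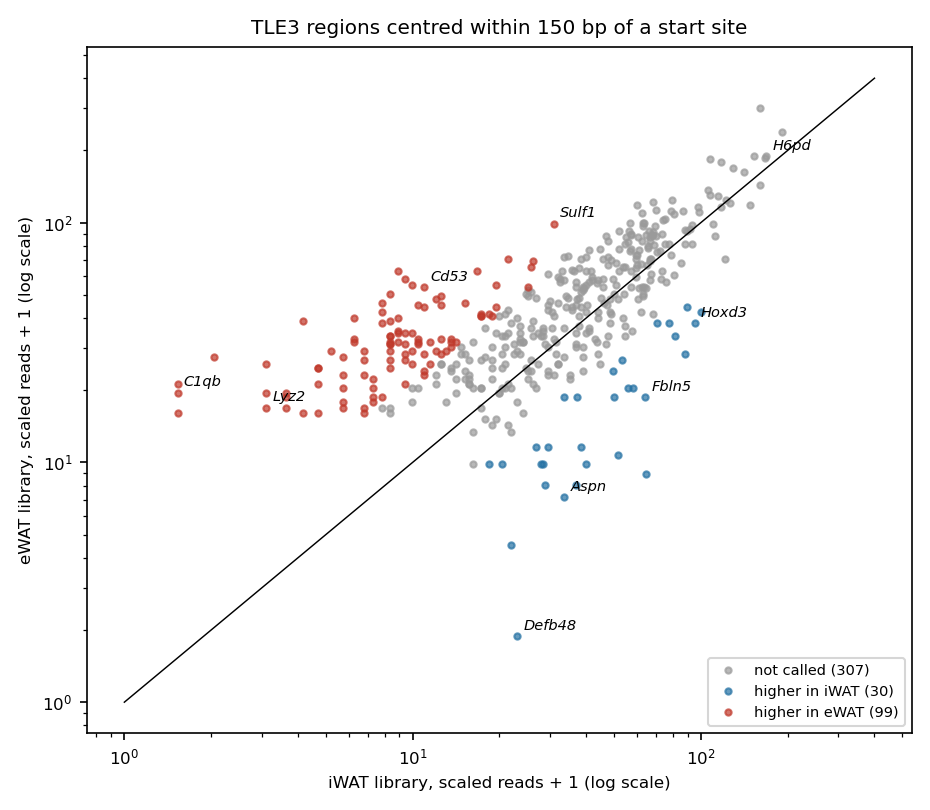
Each point is a TLE3 region centred within 150 bp of a start site, with scaled reads + 1 in the iWAT library on the horizontal log axis and in the eWAT library on the vertical log axis, 1 library a depot; the line marks equal values before centring. The 99 regions higher in eWAT, among them C1qb, Lyz2 and Cd53, lie at low iWAT values, the 30 higher in iWAT include Aspn, Fbln5, Hoxd3 and Defb48, and strong starts such as H6pd lie near the line.

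A macrophage list was looked at as markers of another cell type that stromal-vascular cultures hold. Of its 14 genes, 11 were named for a region and measured. Of these, 6 (54.5%, against 9.72% of all measured genes) were higher in eWAT and 0 (against 11.9%) in iWAT. The median log2 difference of the 11 was 1.28, against 0 for all measured genes. Summed values over the 11 ran from 38.9 to 169 scaled reads in eWAT, from 7.36 to 161 in iWAT and from 0 to 38.7 in BAT. Itgam, the integrin CD11b, held 70.6 in eWAT and 9.99 in iWAT (2.69, 1.95 to 3.49), and Adgre1, the surface marker F4/80, 42.4 and 7.36 (2.39, 1.51 to 3.36). Cd14 held 102 and 26.8 and Cd163, the haemoglobin scavenger receptor, 83.9 and 31.5. Of the 27 regions of the 11 genes, 19 were higher in eWAT and 2 in iWAT, against 16.9% and 24.5% of all regions. The members not called were Cx3cr1 at 169 and 161, Ptprc at 162 and 85.7, Mrc1 at 91.8 and 54.7, Csf1r at 60.9 and 32.6, and Clec10a, which leaned the other way at 89.2 and 149 (-0.87, -1.22 to -0.54). Cd68, Aif1 and Spi1 were named for no region. TLE3 occupancy is not expression, and how many macrophages each culture held was not measured here. Their part in the eWAT-higher signal was not tested.

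A cluster of chemokine receptor genes on mouse chromosome 9 gave a block of eWAT-higher regions. The receptors Ccr1, Ccr2 and Ccr3 sit on leukocytes and guide them to chemokines. At -184 to -11.5 kb from the Ccr2 start lay 15 regions, 14 of them higher in eWAT and 0 in iWAT. The median was 23.0 in the eWAT library and 5.78 in the iWAT library. A region 16.0 kb downstream of the Ccr3 start (chr9:123952610-123952840, mm9) held 44.2 and 9.46 (2.10, 1.30 to 2.96). A region in a Ccr1 intron held 64.5 and 28.9 (1.03, 0.51 to 1.57). The region not called lay at the Ccr1 start, with 25.6 in eWAT and 14.7 in iWAT (0.68, -0.12 to 1.48). The BAT library had at most 13.8 scaled reads, worth 5 reads, at these regions. The deposited tables name 4 regions beside Ccr1 for Cdkn2d, a gene that RefSeq places elsewhere, so the name says nothing here about that cell cycle inhibitor. By the same check, 96 of 65688 regions with a known gene were named for a gene placed elsewhere.

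The firmest iWAT-higher block lay around Tbx15 and on to Spag17. Tbx15 encodes a T-box factor of skeletal and subcutaneous fat development, and T-box factors are among the proteins that can recruit Groucho corepressors. Of 33 regions named for Mir6481, Tbx15 or Spag17, at -82.4 to 717 kb from the Tbx15 start, 31 were higher in iWAT, 2 were not called and 0 were higher in eWAT. Their median was 1.77 scaled reads in eWAT, which is under the limit that 0 reads allow, and 39.4 in iWAT. An intronic region of Tbx15 (chr3:99096722-99096952, mm9) held 3.53 in eWAT, 116 in iWAT and 41.5 in BAT. The region with the highest value (chr3:99597641-99597871), 91.6 kb upstream of the Spag17 start, held 22.1, 199 and 66.4 in the same order. Over its 17 regions, Tbx15 summed to 109 scaled reads in eWAT and to 898 in iWAT (log2 difference -3.18, -3.46 to -2.92). Spag17, a cilium gene, summed to 44.2 and 708 over 10 regions (-4.14, -4.58 to -3.73). Intronic and intergenic regions were both called, and the 1 uncalled region of Tbx15 held 31.8 and 44.1. In BAT the 17 Tbx15 regions summed to 260.0 scaled reads, between the white libraries.

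**Figure D2:**
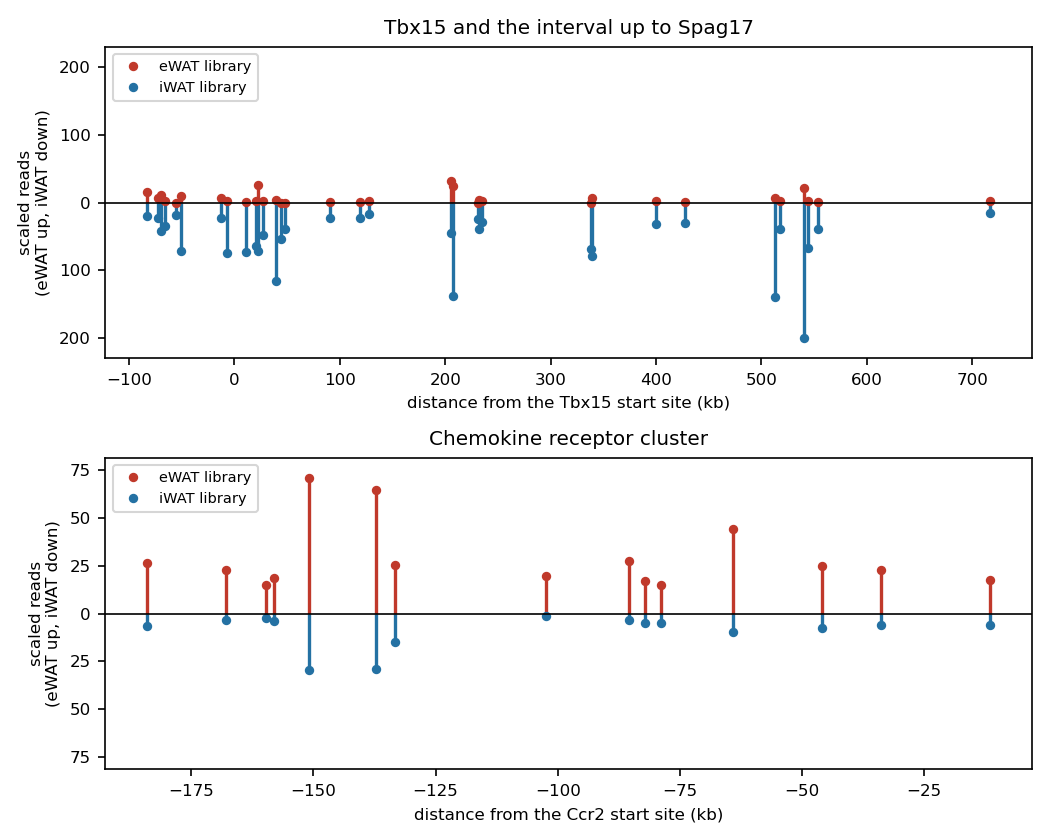
Each stem is a region, placed by its distance in kb from the Tbx15 start (top) or the Ccr2 start (bottom), with eWAT scaled reads drawn upward and iWAT scaled reads downward, 1 library a depot. Around Tbx15 the iWAT stems reach 199 and the eWAT stems stay at or below 31.8; in the chemokine receptor cluster the eWAT stems reach 70.6 and are the longer at all 15 regions drawn.

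Called regions had a called neighbour of the same direction more often than regions at large. Within 50 kb, the next region after an eWAT-higher region was eWAT-higher in 25.5% of pairs, against 16.3% after any region. For iWAT-higher regions the shares were 35.3% and 23.8%. Unbroken runs of at least 4 regions numbered 131 for eWAT, holding 5.12% of its called regions, and 348 for iWAT, holding 10.0%. The longest eWAT run had 12 regions over 175 kb downstream of Tmem114 and summed to 427 in eWAT and 83.5 in iWAT (2.23, 1.97 to 2.50). Another run had 7 regions upstream of Jun, a subunit of the AP-1 factor, at 203 and 52.6. A run of 6 over 41.7 kb lay from 93.9 to 135 kb downstream of the start of Meis1, a homeobox partner of Hox proteins, at 267 and 62.5. For iWAT, the longest run had 17 regions at Mir6481 and Tbx15, with 74.2 in eWAT and 816 in iWAT. A run of 8 lay at Osr2, a zinc finger factor of limb and palate, and its neighbour BC048602, with 50.3 and 522 (-3.50, -3.91 to -3.11). A run of 11 crossed the Reg1, Reg2 and Reg3 genes, which encode secreted lectins, with 122 and 508. Runs thus held a small part of the called regions on either side.

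Over all regions, the white libraries shared most of their listed regions. The eWAT list held 51015 regions and the iWAT list 50456, and 34055 stood in both, which is 66.8% of the eWAT list (interval 66.3 to 67.2%) and 67.5% of the iWAT list (67.1 to 67.9%). Among the 34055, 1527 (4.48%) were higher in eWAT, 3428 (10.1%) in iWAT and 29100 (85.5%) were not called. The 16960 regions listed in eWAT and not in iWAT had medians of 24.7 and 9.98 scaled reads, and 41.6% of them were not called. For the 16401 on the iWAT list alone of the pair, the medians were 8.83 and 26.3 scaled reads, and 20.4% of them were not called. The iWAT library had more reads behind each scaled read, 29 at its weakest listed region against 17 in eWAT. With the regions cut into 5 equal sets by mean value, 33.0% of the weakest set were higher in eWAT and 38.0% in iWAT. In the strongest set the shares were 5.58% and 12.8%. The weakest set had means of 7.5 to 15.5 scaled reads. A listed region holds at least 15 on 1 side, so such a mean goes with a low value on the other. The shares of the weakest set are thus partly fixed by the listing. Across the 67416 regions, Pearson's r of log2(value + 1) was 0.38, a description over regions that were listed for being high in 1 or both libraries and share the input. No read was seen in eWAT at 590 regions and in iWAT at 83.

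**Figure D3:**
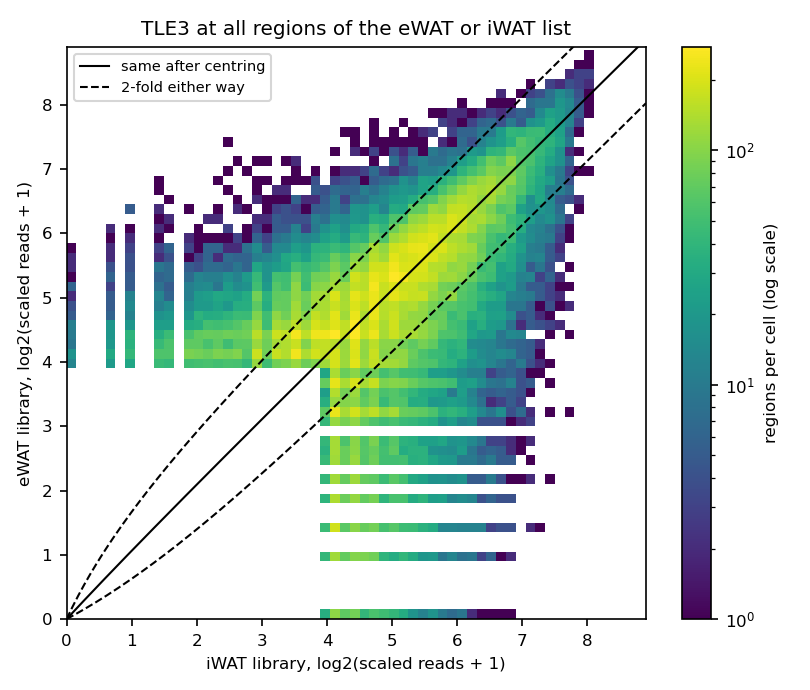
The plot shows all 67416 regions by log2(scaled reads + 1) in iWAT (horizontal) and eWAT (vertical), coloured by the number of regions per cell on a log scale; the solid line marks equal values after centring and the dashed lines 2-fold. Most strong regions lie between the dashed lines, and the empty corner at low values in both libraries is where regions were not listed.

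Single regions with the firmest difference had few or no reads on one side. A region 118 kb downstream of the start of Tiam1, an activator of the small GTPase Rac, held 52.1 scaled reads in eWAT and 0 in iWAT, at least 30.4-fold higher by the limit for 0 reads. An intronic region of Mctp2 held 108 and 1.58 (log2 difference 5.97, 4.39 to 8.27). Mctp2 also had regions of the opposite sign, since 9 neighbouring regions of Mctp2 and Gm6567 formed an iWAT-higher run with 86.6 and 452 (-2.51). On the iWAT side, a region 166 kb upstream of Prg4, the joint lubricant proteoglycan, held 0 in eWAT and 115 in iWAT. That is at least 47.1-fold lower in eWAT. The region at the Prg4 start itself was not called, at 114.8 and 96.7. A region 172 kb downstream of the start of Fzd1, a Wnt receptor, held 0 and 69.4, at least 28.5-fold lower. Regions 563 kb downstream of the Lmo7 start and 359 kb upstream of the Pkia start held 1.77 each in eWAT. In iWAT they held 150 and 143. Of the 24 regions with the firmest differences, 12 a side, 0 lay at a start site. Only 436 of all 67416 regions were centred within 150 bp of one, so 0 of 24 is close to that share.

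Tbx20 led the genes that were higher in eWAT. It encodes a T-box factor of the heart, and its 3 regions held 19.4, 77.7 and 91.0 scaled reads in eWAT and 2.1, 7.36 and 5.26 in iWAT. They summed to 188 and 14.7 (3.54, 2.97 to 4.16). Wnt4, a Wnt ligand of kidney and gonad development, came next. Its 3 regions, 1 of them 48.7 kb upstream and 2 in introns, held 53.9, 27.4 and 19.4 in eWAT and 2.1, 5.26 and 1.05 in iWAT, and the BAT library had no read at any of them. The sum was 101 and 8.41 (3.45, 2.68 to 4.30). Daam2, a formin linked to Wnt signalling, had 5 of 6 regions higher in eWAT and summed to 338 and 82.0 (1.91, 1.64 to 2.19). C8b, a chain of the terminal complement complex, summed to 231 and 54.7, Sidt1, a membrane protein of RNA uptake, to 127 and 20.5, and Tagap, a GTPase-activating protein of T cells, to 160.0 and 34.1. Zbtb18, a zinc finger repressor, summed to 185 and 42.6, and Dlg3, a synaptic scaffold, to 146 and 28.9. The other genes of the leading 15 were 4930554G24Rik, Otud7a, Capsl, Cdkn2d (misplaced, as above), Tmem114, Gm12718 and C77080. Their log2 differences ran from 1.90 for Tmem114 to 2.96 for 4930554G24Rik. Gm12718 lost its difference when only regions listed in both depots (-0.012), within 50 kb (0.25) or within 10 kb (0.19) were summed.

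Reln, Spag17 and Tbx15 were among the genes with the firmest iWAT-higher sums. Reln encodes the secreted guidance protein reelin, and its 3 intronic regions held 1 read in all in eWAT (0.88 scaled reads) and 85.1 scaled reads in iWAT. The interval of its log2 difference is wide for that reason, from -12.04 to -4.23. Slitrk6, a neuronal membrane protein, had 14 of 16 regions higher in iWAT and summed to 123 and 762 (-2.77, -3.03 to -2.52). Ibsp, the bone sialoprotein, summed to 18.6 and 142 (-3.08, -3.79 to -2.44). Dgkb, a diacylglycerol kinase, summed to 14.1 and 144, Gbp4, an interferon-induced GTPase, to 8.84 and 85.1, and Dsc3, a desmosomal cadherin, to 6.18 and 63.6. Pkia, an inhibitor of protein kinase A, summed to 23.9 and 179, Arsg, a lysosomal sulfatase, to 18.5 and 153, and Nmd3, a ribosome export factor, to 30.9 and 253. The leading 15 also held 1810007D17Rik, Mir6379, Olfr1016 and Tmem132b, with differences from -3.90 to -3.66. Reads named for an odorant receptor such as Olfr1016 only say that it is the nearest start.

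**Figure D4:**
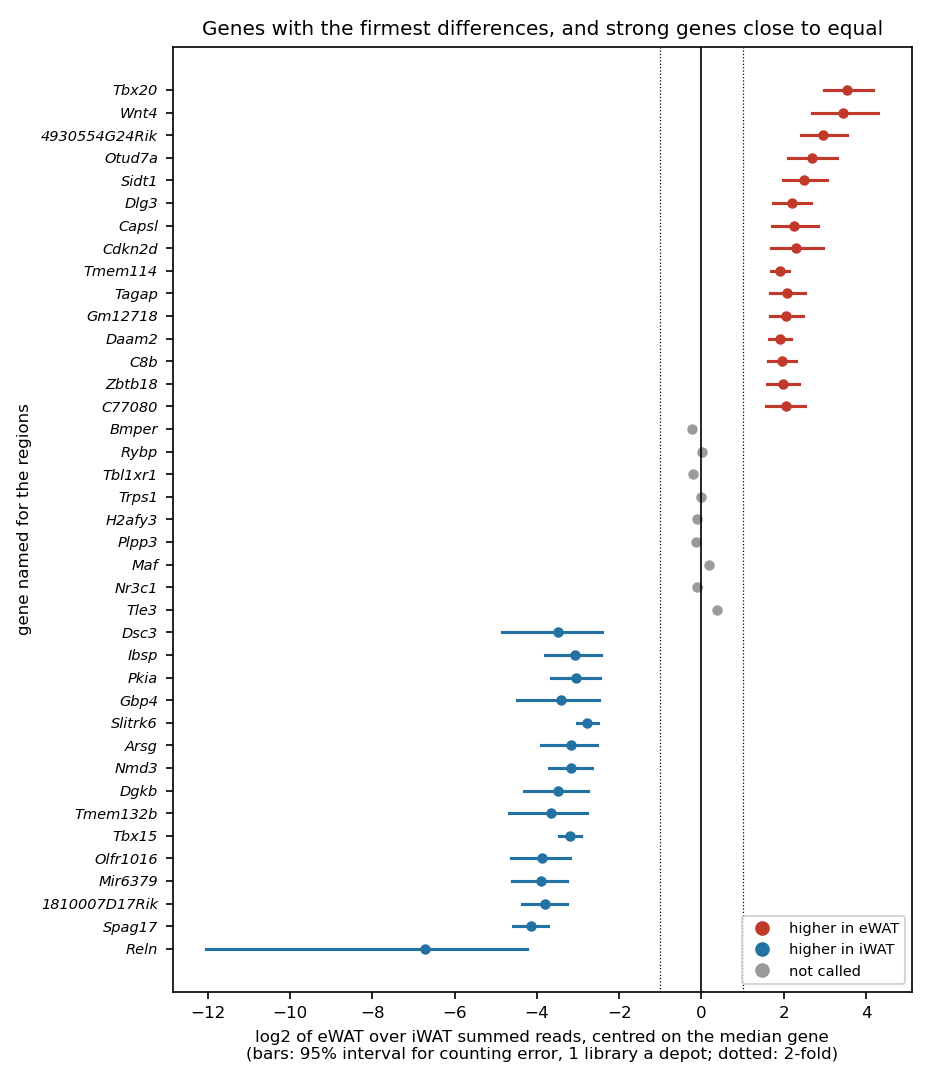
Points give the log2 of eWAT over iWAT summed reads for the 15 genes with the firmest difference each way and for Tle3. Also shown are the 8 strongest genes whose whole interval kept the sums at most 25% apart. Bars are 95% intervals for counting error, with 1 library a depot. The leading eWAT genes lie between 1.90 and 3.54, the leading iWAT genes between -6.73 and -2.77, and the strong genes close to 0.

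Some genes with a large summed signal had similar sums in both depots while their single regions differed. In 1172 genes the whole interval kept the larger centred sum at most 25% above the smaller. Genes with few reads have wide intervals, so this count favours genes with many reads. How often sums were similar is not read from it. Bmper, a secreted BMP-binding protein, summed to 3398 scaled reads in eWAT and 3623 in iWAT over 73 regions (-0.23, -0.29 to -0.17). Nr3c1, the glucocorticoid receptor, summed to 2085 and 2029, Rybp, a Polycomb subunit, to 2802 and 2539, and Tbl1xr1, a subunit of the NCoR corepressor complex, to 2577 and 2717. Trps1, a GATA-type repressor, summed to 2492 and 2280. Equal sums did not mean equal regions. Maf, a bZIP factor, summed to 2444 and 1971 (0.17, 0.10 to 0.25), yet of its 61 regions 23 were higher in eWAT and 18 in iWAT. A Maf intronic region (chr8:117793678-117793908, mm9) held 199.6 in eWAT and 20.5 in iWAT, and a region 223 kb upstream of its start (chr8:118453763-118453993) held 41.5 and 179.7. Nr2f2, which encodes the nuclear receptor COUP-TFII, had 11 of 36 regions higher in each depot and sums of 1198 and 1182. Efnb2, an ephrin ligand, had 12 higher in eWAT and 15 in iWAT of 53, and Pla2g4a, a phospholipase, 13 and 17 of 42. In all, 3239 genes, 33.0% of the 9807 with at least 2 regions, had regions called both ways. Of these 3239, 3057 had no call for the sum. Over all regions 16.9% were higher in eWAT and 24.5% in iWAT, and at such shares genes with many regions can hold calls both ways. Whether the genes named here exceed those shares was not tested. Among the 1886 genes with at least 10 regions, 125 had a summed call, 11 for eWAT and 114 for iWAT. The 114 included Epha3, an ephrin receptor, at 261 and 891 (-1.91, -2.09 to -1.73), Cadm2, a synaptic adhesion protein, at 147 and 776, and Nox4, an NADPH oxidase, at 217 and 722. The 11 included Cd55b, a complement regulator, at 563 and 194, and Ajap1, a junction protein, at 434 and 149.

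Developmental factors of the body wall and limb were higher in iWAT where their summed regions were called. Of 30 measured genes, 9 (30.0%, against 11.9% of all genes) were higher in iWAT and 0 (against 9.72%) in eWAT. The median log2 difference was -0.68, against 0 for all measured genes, and 22 of the 30 lay below 0. With only regions within 50 kb, 8 of 26 were higher in iWAT and 1 in eWAT, against 13.6% and 10.3% of all genes. By region, 128 of 259 were higher in iWAT and 12 in eWAT, against 24.5% and 16.9% of all regions. Besides Tbx15, Tbx18, a T-box factor of trunk mesoderm, summed to 738 in eWAT and 1587 in iWAT (-1.24, -1.35 to -1.13), with 22 of 30 regions higher in iWAT. Tbx5, the forelimb factor, held 20.3 and 76.2, and Tbx4, the hind limb factor, 11.5 and 63.1. Irx2 and Irx5, homeobox factors of the Iroquois family, held 3.53 and 119, and 15.9 and 97.2. Ebf3, an early B-cell factor family member, held 110.4 and 425 (-2.08, -2.36 to -1.81), whereas its relative Ebf1 was not called at 891 and 1049. Hox genes went both ways, with 3 (23.1%) higher in eWAT, 4 (30.8%) in iWAT and a median of 0.16 over 13 measured of 39. Over all genes the shares were 9.72% and 11.9%. Hoxa5, an anterior Hox gene, held 183 in eWAT and 26.8 in iWAT at its 1 region (2.63, 2.19 to 3.11), and Hoxa2 held 85.7 and 18.9. The posterior Hoxc10 held 3.53 and 32.1 (-3.32, -5.24 to -1.89) and Hoxc8 2.65 and 21.0. Hoxc13, also posterior, was higher in eWAT at 75.9 and 17.3, so the called Hox genes did not sort by position along the axis. Other Hox genes share neighbouring start sites, and a region is counted only for the nearest.

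With all regions summed, visceral and mesothelial genes had a median of -0.15. They showed 1 call each way among 19 measured (5.26%, against 9.72% and 11.9% of all genes). This count depended on the regions taken. With only regions within 10 kb of a start, 5 of 13 were higher in eWAT and 2 in iWAT, against 12.2% and 15.8% of all genes. The median was then 0.79. Without centring, 3 of 19 were higher in eWAT and 1 in iWAT. Msln, the mesothelial surface protein mesothelin, was the 1 higher in eWAT at 65.3 and 18.4 (1.69, 1.09 to 2.32). Isl1, a LIM homeobox factor, was the 1 higher in iWAT at 285 and 629 (-1.28, -1.46 to -1.10). Wt1, the mesothelial and visceral fat factor, summed to 189.9 in eWAT and 326 in iWAT and was not called (-0.91, -1.15 to -0.69). Tcf21 summed to 997 and 761 over 18 regions (0.25, 0.14 to 0.37), although its start-site region was higher in eWAT, as given above.

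TCF/LEF factors of the Wnt pathway are classic partners of Groucho proteins. Of 31 Wnt pathway genes measured, 4 (12.9%) were higher in iWAT, close to the 11.9% of all genes, and 0 (against 9.72%) in eWAT. The list's median was -0.26, and 25 lay below 0. Without centring, 2 were higher in iWAT, against 9.88% of all genes, and the median was -0.12. The iWAT share depended on the regions taken. With only regions within 50 kb of a start, 5 of 27 were higher in iWAT, against 13.6% of all genes. Within 10 kb, 8 of 20 were higher in iWAT and 0 in eWAT, against 15.8% and 12.2% of all genes. The median was then -0.60. Wnt4, given above as higher in eWAT, is not in this list. Lgr5, the R-spondin receptor of stem cells, held 7.95 in eWAT and 213 in iWAT at its 1 region (-4.88, -6.02 to -3.94). The ligand Wnt2 summed to 146 and 319 (-1.27, -1.52 to -1.02), the Wnt agonist Rspo2 to 163 and 308, and Wisp2, a secreted target, to 226 and 412. Axin2, the feedback inhibitor, was not called at 1341 and 1349. Notch genes showed 1 call each way of 13 (7.69%, against 9.72% of all genes in eWAT and 11.9% in iWAT). Hey1, a target transcription factor, held 92.7 and 34.2 (1.30, 0.84 to 1.77) and the receptor Notch1 25.6 and 73.6 (-1.66, -2.29 to -1.07). Ligand Jag1, with 54 regions, summed to 1481 and 2066 and was not called (-0.62). Of 41 BMP and TGF-β genes, 0 were higher in eWAT and 3 (7.32%, under the 11.9% of all genes) in iWAT, among them the ligand Bmp5 at 48.6 and 209 (-2.24) and the BMP inhibitor Grem1 at 37.1 and 107 (-1.67).

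Summed over their regions, adipocyte genes carried similar TLE3 signal in both depots, while some of their single regions were called. In the lipid storage list, 1 of 36 measured genes was higher in eWAT and 0 in iWAT. The median was 0.10, and over all genes the shares were 9.72% and 11.9%. Of the list's 213 regions, 24 were higher in eWAT and 28 in iWAT, against 16.9% and 24.5% of all regions. Pparg, the master regulator of fat cells, summed to 1328 in eWAT and 1196 in iWAT over 25 regions (0.02, -0.08 to 0.11). The lipase gene Lpl held 1024 and 855 and the fatty acid transporter Cd36 784 and 710.0, both at most 25% apart after centring. Adipoq, the adipokine adiponectin, held 359 and 435 and Fabp4, the fatty acid carrier, 228 and 147, both not called. The called member was Cfd, adipsin, at 58.3 and 26.3 (1.01, 0.46 to 1.57), at the edge of the 2-fold limit. Of 31 adipocyte transcription regulators, 0 were called in either direction, against 9.72% and 11.9% of all genes. Of their 381 regions, 44 were higher in eWAT and 82 in iWAT, against 16.9% and 24.5% of all regions. Sums over many regions were called less often. Among the 1886 genes with at least 10 regions, 11 had a summed call for eWAT and 114 for iWAT. In the insulin and glucose list, 1 of 33 was higher in eWAT and 0 in iWAT, against 9.72% and 11.9% of all genes. The 1 called was Ldhb, a lactate dehydrogenase subunit, at 186 and 82.5 (1.04, 0.73 to 1.35). Of this list's 280 regions, 42 were higher in eWAT and 47 in iWAT, against 16.9% and 24.5% of all regions.

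The thermogenic list had 3 of 28 genes higher in eWAT (10.7%, close to the 9.72% of all genes) and 1 in iWAT (3.57%, against 11.9%). The median was 0.19. Ckb, a creatine kinase, held 38.9 in eWAT and 7.88 in iWAT (2.17, 1.29 to 3.12). Slc27a2, a fatty acid transporter, held 31.8 and 5.26, and Slc6a8, the creatine transporter, 39.7 and 16.8. Epsti1 was the 1 higher in iWAT, at 91.8 and 168. Ucp1, the uncoupling protein, was not called at 212 and 178 over 4 regions (0.12, -0.13 to 0.36), nor were Ppargc1a, its coactivator, at 745 and 511 (0.41, 0.27 to 0.54), and Dio2, the deiodinase, at 553 and 414. Of the nuclear oxidative phosphorylation genes, 40 of 73 were named for no region. Among the 31 measured, 5 (16.1%) were higher in eWAT and 2 (6.45%) in iWAT, against 9.72% and 11.9% of all genes. Their median was 0.07. Ndufv3 of complex I, higher in eWAT, held 224 and 84.1 (1.28, 0.99 to 1.57).

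TLE3 occupied its own gene in both depots. Tle3 summed to 2506 scaled reads in eWAT and 1742 in iWAT over 31 regions (0.39, 0.32 to 0.46), with 7 regions higher in eWAT and 2 in iWAT and no call for the sum. Of the 6 Groucho family genes, 0 were called, with Tle1 at 1246 and 1538 (-0.44) and Tle4 at 768 and 910.2 (-0.38). Of 26 fibroblast genes, 1 (3.85%) was higher in eWAT and 3 (11.5%) in iWAT, with a median of -0.35. Over all genes the shares were 9.72% and 11.9%. Pi16, a marker of fibroblast progenitors, was higher in eWAT at 139.5 and 35.7 (1.83, 1.41 to 2.26). Mmp3, a stromal protease, was higher in iWAT at 5.3 and 58.9. So were Lum, the matrix proteoglycan lumican, at 110.4 and 287, and Timp1, a protease inhibitor, at 13.3 and 38.9. The fibroblast counts depended on the regions taken. Within 50 kb of a start, 1 of 26 was higher in eWAT and 6 in iWAT, against 10.3% and 13.6% of all genes. Within 10 kb, 0 of 23 were higher in eWAT and 8 in iWAT, against 12.2% and 15.8%, with a median of -0.50. With all regions summed, axon guidance genes had 3 of 41 (7.32%) higher in eWAT, against 9.72% of all genes. In iWAT 1 (2.44%, against 11.9%) was higher, the Epha3 given above. Sema4d, a semaphorin gene higher in eWAT, held 112 and 25.8. Among markers of the remaining cell types, eWAT and iWAT calls numbered 1 and 2 of 13 endothelial genes and 0 and 1 of 10 muscle genes. They numbered 2 and 2 of 11 neuronal genes and 2 and 1 of 11 hepatocyte genes. Lists this small say little against the shares of all genes. Erg, an endothelial ETS factor, held 106 and 335 (-1.80, -2.09 to -1.51).

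**Figure D5:**
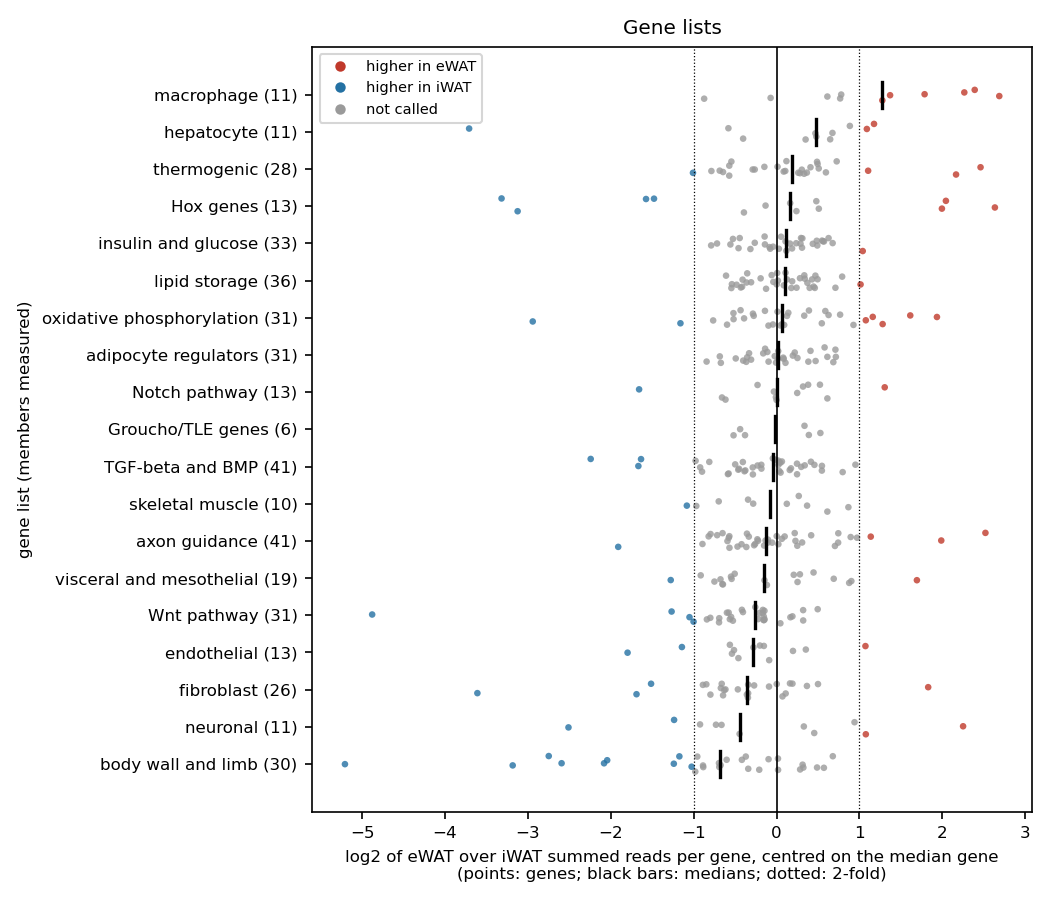
Each point is a measured gene of a list, placed by the log2 of eWAT over iWAT summed reads centred on the median gene; black bars are list medians, dotted lines mark 2-fold, and each depot has 1 library. The macrophage list has the highest median, 1.28, the body wall and limb list the lowest, -0.68, and the lipid storage, regulator and Groucho lists lie close to 0.

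Regions higher in iWAT lay farther from genes. Their median distance to a start site was 58.4 kb, against 33.4 kb for eWAT-higher and 34.2 kb for uncalled regions. Over 100 kb away lay 34.9%, 22.2% and 22.6% of the 3 sets. Intergenic regions made up 56.4% of the iWAT-higher set, 48.2% of the eWAT-higher set (interval 47.3 to 49.1%) and 47.6% of the uncalled set. Promoter regions made up 1.97% of the eWAT-higher, 0.898% of the iWAT-higher and 2.40% of the uncalled regions, so that neither called set exceeded the uncalled one. At the same regions the BAT library had medians of 2.77 scaled reads (eWAT-higher), 5.53 (iWAT-higher) and 11.1 (uncalled). Listed in BAT were 5.17%, 10.7% and 26.6%. The BAT values rest on few reads, and 0 reads were seen at 40.7% of eWAT-higher and 26.1% of iWAT-higher regions, so a difference between the called sets and BAT is not read from them. Input medians were 1.30, 0.651 and 1.30 scaled reads, which are 2, 1 and 2 reads, and the single input library came from iWAT.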

How the data were processed

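Per the file headers, each deposited table lists peak regions with the nearest gene, an annotation, a distance to the start site and a value for each library. The deposited values are a signal: region reads that the authors brought to a common library total. All of them (100%, within 0.1 read) are whole multiples of what 1 read is worth, and these reads set the intervals. The score column that the authors deposited holds 0 throughout and was not used. STAR, HOMER and mm9 are named by the submitters' processing notes; the peak calling is not given in the sources used. Regions of the eWAT and iWAT lists were compared with Python 3.11.15, pandas 2.3.3 and scipy 1.17.1. Ratios carry Clopper-Pearson intervals and shares Wilson intervals, at 95%, for counting error only; reads without molecular identifiers are not independent molecules. There is no test between depots, since each has 1 library, and p-values are not given. The code was tested on simulated data. Genes named are the 15 each way whose interval lies farthest from no change, with at least 3 regions and 100 reads. Also named are the 8 strongest with the whole interval within 1.25-fold of no change and the 8 with most regions called both ways. Tle3 and up to 4 members of each list follow, and others were chosen after their values were seen. Members and gene lists were chosen with earlier results of these data known. The 19 lists hold 554 gene symbols (Adgre1 also stands under its older symbol Emr1), 434 of them named for a region. Sequences come from RefSeq GRCm38.p6 by symbol; motifs in the regions themselves were not searched, since no mm9 genome was used here. Alternatives changed the centring, fold, interval, read minimum, input, depth, listing and distance. The window in the chemokine receptor cluster ends at the Ccr2 start, and regions past it are not reported here.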

Additional observations from a re-analysis of the deposited data

How the results depend on the processing

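The replicate check is missing for every value, since each depot has 1 library. No paired analysis was possible because the labels carry no replicate numbers and there is 1 library per depot. Counts of regions higher in eWAT and iWAT were 4293 and 8561 when the whole interval had to pass 2-fold, 5373 and 9455 among regions with at least 30 scaled reads in 1 library, and 1442 and 3556 among regions listed in both depots. Counts of genes were 2453 and 2865 at 1.5-fold, 510 and 792 with the whole interval past 2-fold, and 339 and 470 from regions listed in both depots; fewer regions enter the last of these. Without centring, which moves all regions by 0.12 on the log2 scale, the order of the gene counts turned, to 1655 in eWAT and 1365 in iWAT (54.8% of calls in eWAT, against 45.0%), and the region counts were 13136 and 14983 (46.7% in eWAT, against 40.9%). Among list members with 30 or more scaled reads on their own side, 79.6% of the eWAT list stood in the iWAT list and 77.5% of the iWAT list in the eWAT list, and 59.7% of the 10000 strongest of each list were shared. With the whole interval past 2-fold, promoter regions made up 1.72% of eWAT-higher and 0.748% of iWAT-higher regions, 23.9% and 39.1% lay over 100 kb from a start site, and 2.49% of eWAT-higher regions were listed in BAT. A gap of at most 20 kb left 54 eWAT and 166 iWAT runs. Genes called both ways were 1186 with the whole interval past 2-fold and 1680 with regions within 50 kb. With regions within 10 kb of a start, 4 of 9 measured body wall and limb genes were higher in iWAT and 0 in eWAT, against 15.8% and 12.2% of all genes. Gm12718 turned to -0.012 with regions listed in both depots, where 5 of the 15 eWAT genes had a value and Tmem114 and Zbtb18 also lost their calls; it lost its call within 50 kb and within 10 kb too. Within 10 kb Maf, Rybp and Tbl1xr1, and within 50 kb Trps1, were called. The 15 named genes a side kept their calls under every centring and with iWAT reads thinned to eWAT depth, wherever they had a value. Motifs in the regions were not run. The cause of these shifts was not tested.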

Other observations

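Repeat families named in the deposited annotation differed in which depot they leaned to; the families given were chosen after their values were seen, from those with at least 50 regions, and no test was made. MER121, an old repeat of unknown class, had 73 regions, of which 48 (65.8%) were higher in iWAT and 1 in eWAT, with medians of 17.7 scaled reads in eWAT and 54.6 in iWAT. The DNA transposon URR1B had 105 of 255 regions higher in iWAT (41.2%) and 19 in eWAT, and URR1A had 90 of 210 (42.9%) and 17. ORR1E, an LTR repeat, went the other way, with 55 of 134 regions higher in eWAT (41.0%) and 17 in iWAT. Over all regions the shares were 16.9% for eWAT and 24.5% for iWAT. DNA transposons made up 3.35% of iWAT-higher, 1.38% of eWAT-higher and 2.32% of uncalled regions. Reads from repeat copies can map to more than 1 place, and the part of such reads in these values was not tested.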
